A study of Sus scrofa with 16 samples.

Results

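Skeletal muscle (the longissimus) was set against brain stem in 4 gilts, young female pigs of about 165 days with no treatment given in the labels. The arrays were made to test a pig oligonucleotide array on very different tissues, and the labels name muscle, brain stem, liver and uterine endothelium as whole tissue samples. The genes described are the 178 of 20736 array rows that carry a gene symbol on the platform. They stand for 175 genes, because ASIP has 4 rows, and 20558 rows are unnamed here. Each of the 16 arrays carried 2 tissues of 1 gilt, one labelled with Cy5 and one with Cy3, and the 4 arrays of a gilt formed a closed loop through its 4 tissues. In gilts 2 and 3 muscle (Cy5) was hybridised against brain stem (Cy3) on 1 array. In gilts 1 and 4 the pair was joined only through liver and through uterine endothelium.

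The deposited log ratios were solved by least squares into 1 value per tissue and gilt, relative to the mean of that gilt's 4 tissues, and the difference reported is muscle minus brain stem. A positive difference is higher in muscle. The log base is taken as 2 and the ratio as Cy5 over Cy3; both are likely and neither is stated, so fold changes depend on the base and every direction on the sign. MYOD1 and liver genes served earlier to choose the sign, and their directions are no evidence for it. A difference passed when its limma p-value, adjusted by Benjamini-Hochberg over all rows, was under 0.05. In direct gilts the loop value leans on the direct array, and in the others it is the mean of both routes. Whole tissues were compared, so fewer cells of a type and less RNA per cell cannot be told apart. A value belongs to 1 probe, and only differences, not levels, can be set side by side between genes. The deposited ratios carry no intensities, so it is not known here which probes were above background.

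Skeletal muscle is built of long contractile fibres that burn glucose and fat, and its lineage is set by transcription factors of the MyoD family. The brain stem holds neurons, glia and bundles of myelinated axons, and its neurons signal with glycine, GABA, monoamines and peptides. Few genes that define either tissue were named on the array. Of 7 fibre markers 2 were named, of which the myogenic factor MYOD1 was higher in muscle and the slow myosin heavy chain MYH7 did not pass (0.10 ± 0.10, SE; limma adjusted p = 0.46). Of 6 neuron markers 4 were named, with GLRB higher in muscle, CEND1 lower and GAD1 and GAD2 not passed, and of 5 oligodendrocyte and astrocyte markers 0 were named. Because MYOD1 had served to choose the sign, its direction does not check the labels, and the neuron markers that passed went in both directions, and CEND1 did not pass with 1 other choice of the zero point, described with the centring of the arrays. The labelled tissues were thus not settled by these markers. Of the markers of other cells that a block of tissue could hold, the leukocyte gene CD4 did not pass (0.16 ± 0.08) except with either recentring of the tissues (0.21 and 0.29), the endothelium and stroma marker CAV1 was higher (0.87) and the fat cell gene PLIN1 was lower (-0.19), a call lost without any single gilt (-0.21 to -0.15). CAV1 was the 1 named of 4 endothelium and stroma markers, and the adult haemoglobin genes HBB and HBA were not named. The part of other cell types in the differences was not tested.

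Of the 178 named rows, 44 were higher in muscle, 31 were lower and 103 did not pass. Thus 42.1% of the named rows passed, against 39.1% of all 20736 rows, of which 21.4% were higher and 17.7% lower, so the named genes differed about as often as the array as a whole. By at least 1 on the log2 scale 6 named rows were higher and 3 lower, where 6.41% and 2.93% of all rows were. The median difference was -0.03 over the named rows and -0.01 over all rows, and the median absolute difference was 0.19 in both. Rows that passed ranged from 0.16 to 4.22 where higher (median 0.50) and from -1.61 to -0.19 where lower (median -0.40). The SE of a named row lay between 0.05 and 0.49, with a median of 0.09 over all rows. Of the 75 that passed, 42 differed by less than 0.5, and of the 103 that did not, 88 lay within 0.2 of 0. All 4 gilts had the same sign in 95 of the 178 named rows, against 52% of all rows, and in 74 of the 75 that passed, LMCD1 being the exception. Passing the test itself favours 1 sign, so the count among rows that passed is no separate check.

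The zero point of these differences is set by the arrays' own centring. Rows at the last 6 positions of each run of 432 rows, 288 in all and of unknown content, had a median SD over tissue values of 0.11, where all rows had 0.19, and a median difference of -0.13. They were not the least variable, because the lowest median SD at any other position was 0.09, against 0.10 to 0.11 at these positions. With every tissue value centred on those rows, an alternative chosen after the data were seen, the median of all rows moved to 0.12. Then 53 named rows were higher and 12 lower, and the share of passing rows that were higher was 78.8%, against 54.7% as reported. The 12 were LTA, IFNA1, IFN-DELTA-1, ODF1, PGLYRP2, TLR10, LALBA, COL10A1, CRSP3, IL18R1, IL17A and ESR2. The other 19 of the 31 lower rows did not pass with that centring.

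**Figure D1:**
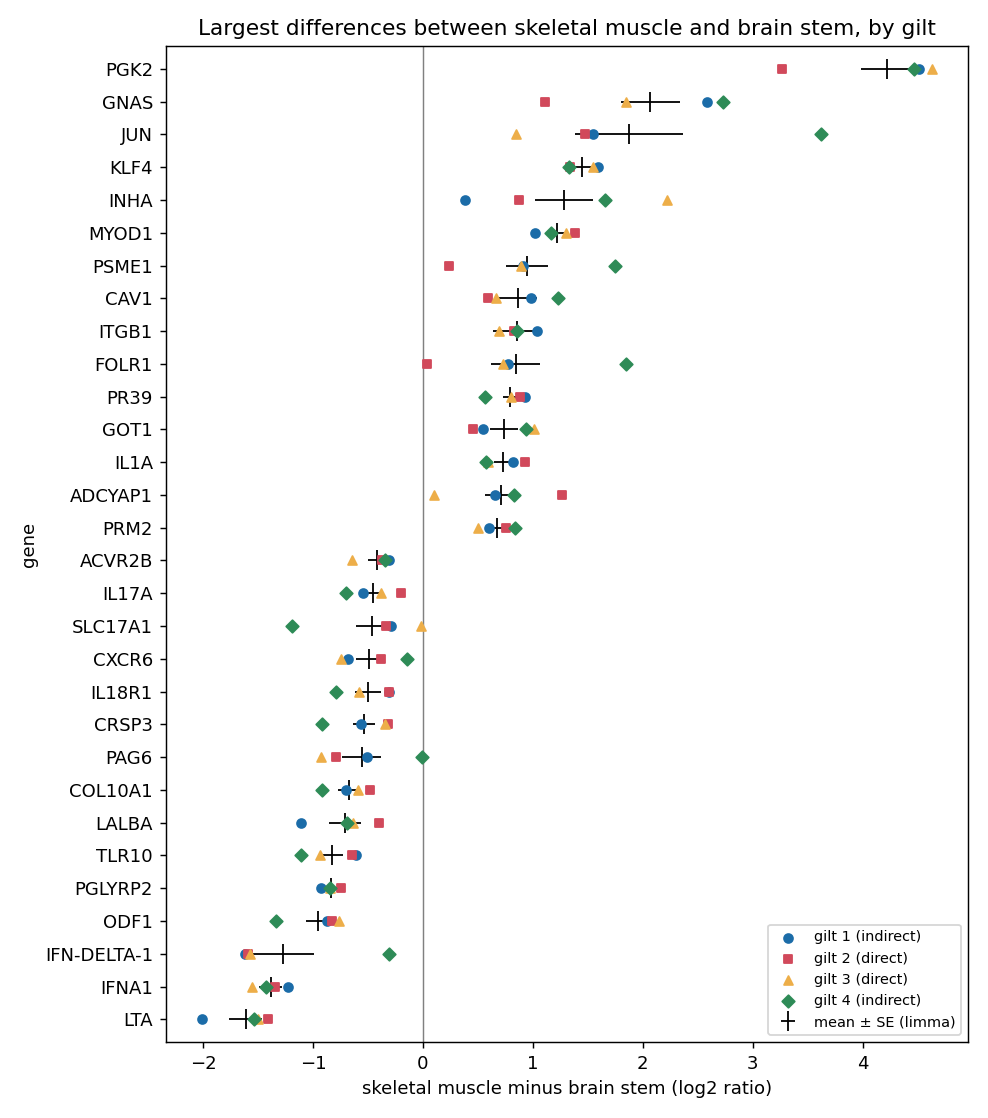
Differences between muscle and brain stem (horizontal axis, log2 ratio) for the 15 largest in each direction among named genes that passed with 1 sign in all gilts; points are single gilts, and black crosses are the mean with its limma SE. LTA and IFNA1 are negative by more than 1 in every gilt and PGK2 is above 3 in every gilt, whereas gilt 4 lies apart for JUN, FOLR1, SLC17A1 and IFN-DELTA-1.

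Among the 3 named genes of muscle regulation and contraction, 2 were higher in muscle, 0 were lower and 1 did not pass (median 0.25). MYOD1, which commits cells to the muscle lineage, stood at 0.72, 1.01, 0.87 and 0.82 in muscle of gilts 1 to 4, against -0.31, -0.37, -0.43 and -0.34 in brain stem. The groups did not overlap, and brain stem lay close to liver (-0.26) and uterine endothelium (-0.23). The difference was 1.22 ± 0.07 (SE, n = 4; limma adjusted p = 4.6e-07), or 2.33-fold. LMCD1, a LIM-domain regulator of muscle and heart transcription, differed by 0.25 ± 0.08 (limma adjusted p = 0.030), but by -0.09 in gilt 1 and by 0.26 to 0.54 in the others. It lost its call without gilt 2 (0.24), gilt 3 (0.25) or gilt 4 (0.16), and its row, like that of MYH7, comes right after a strong row, one whose mean in some tissue was 1 or more in size. The 5 named genes best known from heart and smooth muscle, GATA6, MYOCD, KCNJ5, KCNA5 and the natriuretic peptide gene NPPA, all failed the test, with differences between -0.17 and 0.15. KCNA5 (0.15) passed under 4 alternatives, both recentrings of tissues and both fits without a fixed gilt block.

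PGK2 had the largest difference of any named gene. It encodes the testis form of phosphoglycerate kinase, a glycolytic enzyme, and the body-wide form PGK1 is a near relative, so which of them the probe measured is uncertain. Its values were 2.55, 1.78, 2.50 and 2.41 in muscle, against -1.96, -1.48, -2.13 and -2.05 in brain stem, with liver at -0.21 and uterine endothelium at -0.19 between them. The difference of 4.22 ± 0.23 (SE, n = 4; limma adjusted p = 4.6e-07) corresponds to 18.6-fold, and it was smallest in gilt 2. Relative to the mean of liver and uterine endothelium, muscle was at 2.51 and brain stem at -1.71, both past the test, so PGK2 set the tissues apart on either side. GOT1, the cytosolic aspartate aminotransferase of the malate-aspartate shuttle, was higher by 0.55, 0.45, 1.01 and 0.94 in gilts 1 to 4 (0.74 ± 0.12). ATP5G1, a subunit of the mitochondrial ATP synthase, missed the threshold at -0.76 ± 0.29 (limma adjusted p = 0.056), and the gilts ranged from -1.97 in gilt 1 to 0.46 in gilt 3. Without gilt 3 it was -1.17 and passed (adjusted p = 0.0090), and it also passed when rows of small SD were left out before adjustment (adjusted p = 0.043). The acyl-CoA dehydrogenase ACADS (0.13), the mitochondrial outer membrane protein TSPO (0.10) and the monoamine-degrading enzyme MAOA (0.16) did not pass. TSPO differed by 0.95 in gilt 1 and by -0.79 in gilt 4. Of the 4 genes on the list of energy metabolism and mitochondria, 1 was higher, 0 were lower and 3 did not pass (median 0.11).

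Signal transduction and early transcription factors were 5 higher, 0 lower and 2 not passed of 7 named (median 0.87, against -0.01 over all rows). Thus 71.4% of this list passed, against 39.1% of all rows. The list holds CAV1, FOLR1 and S100A11, which are membrane, adhesion and matrix genes by role. Genes with the role of signal transduction, growth and early transcription were 4 higher, 0 lower and 4 not passed of 8 (median 0.29). GNAS, the alpha subunit of the G protein that stimulates adenylyl cyclase, stood at 0.72, -0.01, 0.12 and 0.56 in muscle, against -1.87, -1.12, -1.73 and -2.17 in brain stem. The difference was 2.07 ± 0.27 (limma adjusted p = 1.0e-04), or 4.19-fold, with the smallest value again in gilt 2 (1.11). Relative to the mean of liver and uterine endothelium, muscle was at -0.34, which did not pass, and brain stem at -2.41. KLF4, a zinc finger transcription factor, stood at 1.16, 0.94, 1.00 and 0.91 in muscle, against -0.43, -0.40, -0.55 and -0.41 in brain stem. Its range over the gilts, 1.32 to 1.59, was the narrowest of the 9 genes that differed by 1 or more (1.45 ± 0.09; limma adjusted p = 1.0e-06). It lay on the muscle side, 1.28 above the mean of liver and uterine endothelium.

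JUN, a component of the AP-1 transcription factor and an immediate early gene, stood at 1.22, 1.18, 0.52 and 1.18 in muscle, against -0.33, -0.30, -0.33 and -2.44 in brain stem. Muscle was above brain stem in every gilt, and brain stem of gilt 4 lay far below that of the other gilts. The difference of 1.87 ± 0.49 (limma adjusted p = 0.011) was 1.29 without gilt 4 and passed without each gilt in turn. CAV1, the coat protein of caveolae, was higher by 0.98, 0.59, 0.67 and 1.23 in gilts 1 to 4 (0.87 ± 0.17). ITGB1, the beta-1 integrin chain, was higher by 1.04, 0.83, 0.69 and 0.86 (0.85 ± 0.21). FOLR1, the membrane receptor for folate, was higher by 0.77, 0.04, 0.72 and 1.85 (0.85 ± 0.22; limma adjusted p = 0.011), and it lost its call without gilt 4 (0.51), with scaled arrays (0.45) and with muscle and brain stem fitted alone. Both tissues were below the mean of liver and uterine endothelium for FOLR1, muscle at -1.78 and brain stem at -2.62. FGF9 (0.10) and S100A11, a calcium-binding protein that ranged from -1.95 in gilt 1 to 1.19 in gilt 4, did not pass. CDKN2B, an inhibitor of cell cycle kinases, was higher by 0.38.

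**Figure D2:**
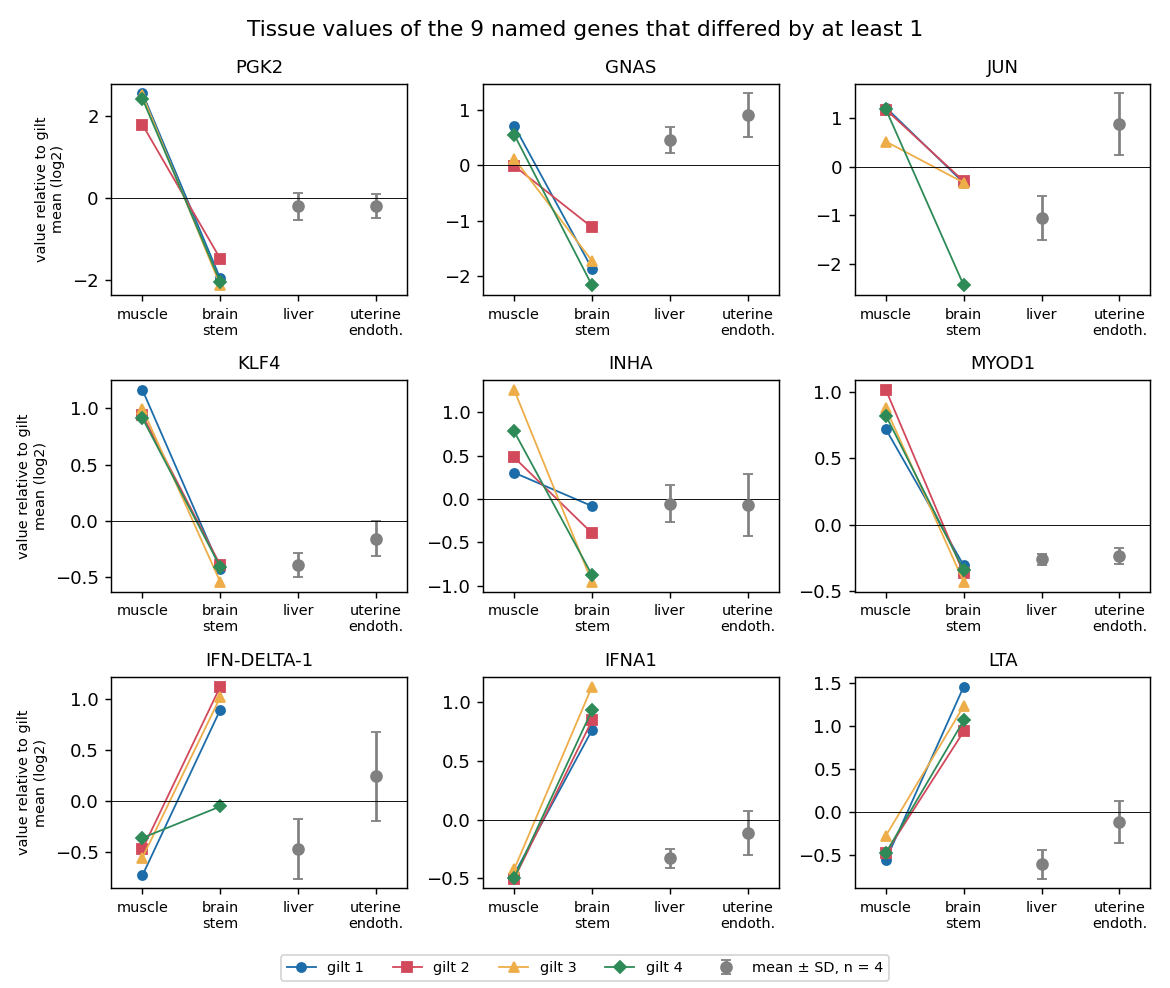
Tissue values relative to the gilt's mean (vertical axis, log2) of the 9 named genes that differed by at least 1, with muscle and brain stem joined by gilt and liver and uterine endothelium as mean ± SD (n = 4). MYOD1 and KLF4 stand apart in muscle, LTA and IFNA1 in brain stem, GNAS is low in brain stem, and 1 gilt departs for JUN and IFN-DELTA-1 in brain stem.

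Of the 6 named genes on the neuronal and glial list, 3 were higher in muscle, 1 was lower and 2 did not pass (median 0.15). SCAMP1, a membrane protein of secretory and synaptic vesicles, was higher by 0.41, 0.37, 0.86 and 0.44 in gilts 1 to 4 (0.52 ± 0.10; limma adjusted p = 0.0020). CACNB4, a beta subunit of voltage-gated calcium channels, was higher by 0.37 ± 0.10, with 0.77 in gilt 3 and 0.10 to 0.32 in the others. It lost its call without gilt 3 (0.24) and with muscle and brain stem fitted alone. GLRB, the beta subunit of the glycine receptor, was higher by 0.39 ± 0.08, and its row follows a strong row. For GLRB muscle (0.13) lay near liver (0.15). Only brain stem differed past the test from the mean of liver and uterine endothelium (-0.33). CEND1, which promotes exit of neural precursors from the cell cycle, was lower, at -0.25, -0.58, -0.38 and -0.23 (-0.36 ± 0.07; limma adjusted p = 0.0013), and -0.23 with centring on the last rows of each run, which did not pass. GAD2, which makes GABA, was -0.21, 0.06, -0.20 and -0.78 and did not pass (-0.28 ± 0.11; limma adjusted p = 0.064). It passed as lower without gilt 2 (-0.40, adjusted p = 0.035) and with no gilt block (-0.26, adjusted p = 0.049). Its relative GAD1 did not pass (-0.07). The serotonin receptor HTR4 was lower (-0.40 ± 0.10), though not with that centring (-0.26). The receptor HTR1F, the prohormone convertase PCSK2 and the oligodendrocyte gene OPALIN lay between -0.08 and -0.01 and did not pass. With that centring the list had 3 higher and 0 lower. Of all 10 named neuronal and glial genes, 3 were higher, 2 were lower and 5 did not pass (median -0.06). With that centring 3 of the 10 were higher and 0 lower (median 0.07).

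Among 11 named neuropeptides, hormones and receptors of the list, 6 were higher in muscle, 2 were lower and 3 did not pass (median 0.34). Thus 72.7% of this list passed, against 39.1% of all rows. ADCYAP1, which encodes the neuropeptide PACAP, was higher by 0.66, 1.26, 0.10 and 0.83 in gilts 1 to 4 (0.71 ± 0.15; limma adjusted p = 0.0025). It was raised on the muscle side, 0.84 above the mean of liver and uterine endothelium, while brain stem was 0.13 above that mean and did not pass. The call was lost with muscle and brain stem fitted alone and weighted by the precision of the loop (adjusted p = 0.057). Prolactin (PRL) was higher by 0.57 ± 0.12, but by 0.12 in gilt 4, and its call was lost with muscle and brain stem fitted alone (adjusted p = 0.054). Its receptor PRLR (0.50 ± 0.07), the oxytocin receptor OXTR (0.50 ± 0.08), the luteinizing hormone chain LHB (0.44 ± 0.10) and HCRT, the precursor of the orexins that sustain wakefulness (0.34 ± 0.08), were higher as well. PRL and OXTR were on the muscle side, 0.41 and 0.45 above the mean of liver and uterine endothelium. For PRLR, LHB and HCRT muscle lay below liver, and only brain stem differed past the test from that mean (-0.59, -0.59 and -0.33). POMC, the precursor of ACTH and endorphin, was lower (-0.26 ± 0.09; limma adjusted p = 0.040), and the call was lost without gilt 1 (-0.17), gilt 3 (-0.25) or gilt 4 (-0.29) and with 5 of the other alternatives. ESR2, the beta estrogen receptor, was lower, at -0.37, -0.26, -0.34 and -0.44 (-0.35 ± 0.05; limma adjusted p = 1.9e-04). LEPR (-0.14), the histamine receptor HRH4 (-0.08) and the progestin receptor PAQR8 (-0.13) did not pass.

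Among the named hormone genes outside the list, INHA, the alpha chain of inhibin, stood at 0.30, 0.48, 1.26 and 0.78 in muscle, against -0.08, -0.40, -0.96 and -0.88 in brain stem. The groups did not overlap, but the difference ran from 0.39 in gilt 1 to 2.22 in gilt 3 (1.28 ± 0.26; limma adjusted p = 0.0026). ACVR2B, a receptor for activins and for myostatin, was lower, at -0.31, -0.37, -0.64 and -0.34 (-0.42 ± 0.08), and lost its call with centring on the last rows of each run (-0.28). CRSP3, a calcitonin receptor-stimulating peptide known from pig, was lower, at -0.57, -0.32, -0.35 and -0.92 (-0.54 ± 0.10; limma adjusted p = 0.0013), whereas its relative CRSP-2 did not pass (-0.11). SSTR5, a somatostatin receptor, was lower, between -0.29 and -0.26 in the 4 gilts (-0.28 ± 0.05), the narrowest spread among the named genes that passed, and lost its call with that centring (-0.14). Of all 32 named genes of this kind, 9 were higher, 5 were lower and 18 did not pass (median -0.06).

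The 7 named cytokines and interferons of the list were 2 higher, 4 lower and 1 not passed (median -0.46), and the 3 largest negative differences of any named gene were among them. Thus 85.7% of this list passed, against 39.1% of all rows. Over all 12 named genes with the role of cytokines and interferons, 4 were higher, 5 were lower and 3 did not pass (median -0.06). LTA, lymphotoxin alpha, a cytokine of the tumour necrosis factor family, stood at -0.55, -0.47, -0.27 and -0.47 in muscle, against 1.45, 0.93, 1.23 and 1.06 in brain stem. The groups did not overlap, and the difference was -1.61 ± 0.15 (limma adjusted p = 9.3e-06). IFNA1, an interferon of the alpha family, stood at -0.47, -0.50, -0.42 and -0.50 in muscle, against 0.76, 0.84, 1.13 and 0.93 in brain stem (-1.39 ± 0.10; limma adjusted p = 2.2e-06). Muscle was close to liver (-0.33), and brain stem lay 1.14 above the mean of liver and uterine endothelium. The type I interferon genes are a family of close copies, so cross-hybridisation to other members cannot be told apart from IFNA1 itself. IFN-DELTA-1, another type I interferon known from pig, stood at -0.72, -0.47, -0.55 and -0.36 in muscle, against 0.90, 1.12, 1.02 and -0.05 in brain stem. Its difference of -1.27 ± 0.28 (limma adjusted p = 0.0040) was -1.59 without gilt 4, where brain stem did not have the high value of the other gilts. IFNB1, in contrast, was higher by 0.16 ± 0.06 (limma adjusted p = 0.037) and lost its call without gilt 2 (0.16), gilt 3 (0.12) or gilt 4 (0.17).

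IL1A, interleukin 1 alpha, was higher in muscle by 0.82, 0.93, 0.59 and 0.58 in gilts 1 to 4 (0.73 ± 0.09; limma adjusted p = 5.6e-05), with both tissues below the mean of liver and uterine endothelium. IL17A, a cytokine of helper T cells, was lower, at -0.55, -0.20, -0.38 and -0.70 (-0.46 ± 0.09; limma adjusted p = 0.0015). IL2 did not pass (-0.06). Outside the list, the CD30 ligand TNFSF8 was higher by 0.40 ± 0.06. IL21 was lower (-0.27 ± 0.07), but its call was lost without gilt 1 (-0.26) or gilt 4 (-0.24) and with centring on the last rows of each run (-0.13). That centring left the list at 2 higher and 4 lower, with a median of -0.32.

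Of the 8 named leukocyte and innate receptors of the list, 0 were higher in muscle, 3 were lower and 5 did not pass (median -0.15, or -0.01 with centring on the last rows of each run). TLR10, a Toll-like receptor of B cells, was lower, at -0.61, -0.65, -0.93 and -1.11 in gilts 1 to 4 (-0.83 ± 0.10; limma adjusted p = 7.8e-05). PGLYRP2, an amidase that cleaves bacterial peptidoglycan, was lower, at -0.92, -0.74, -0.85 and -0.85 (-0.84 ± 0.10; limma adjusted p = 5.1e-05), with muscle at -0.35 to -0.14 and brain stem at 0.48 to 0.70. PDCD1LG2, a ligand of the inhibitory receptor PD-1, was lower (-0.23 ± 0.07), follows a strong row and lost its call without gilt 2 (-0.26), gilt 3 (-0.23) or gilt 4 (-0.25). Outside the list, the interleukin 18 receptor chain IL18R1 was lower (-0.50 ± 0.12), with -0.31 in gilts 1 and 2, -0.58 in gilt 3 and -0.79 in gilt 4. The chemokine receptor CXCR6 was lower (-0.49 ± 0.12), but not past the test without gilt 1 (-0.43) or gilt 3 (-0.40) or with that centring (-0.36). CD1.1, an antigen-presenting molecule for lipids, was the only named leukocyte receptor gene that was higher (0.36 ± 0.06). Of all 19 genes of this kind, 1 was higher, 7 were lower and 11 did not pass (median -0.20), and with that centring 4 were higher and 2 lower (median -0.06).

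Of the 3 named genes of antigen processing and the oxidative burst, 1 was higher in muscle, 0 were lower and 2 did not pass (median 0.01). PSME1, a subunit of the interferon-induced proteasome activator, was higher by 0.91, 0.24, 0.89 and 1.75 in gilts 1 to 4 (0.95 ± 0.19; limma adjusted p = 0.0025). Both tissues lay below the mean of liver and uterine endothelium, muscle at -1.18 and brain stem at -2.13. PSMB8, an immunoproteasome subunit, was -0.15, -0.27, -0.24 and 0.71 and did not pass, nor did CYBA, the light chain of the phagocyte oxidase (-0.00093 ± 0.12). Among antimicrobial peptides, the pig cathelicidin PR39, known from neutrophils and marrow, was higher by 0.93, 0.88, 0.81 and 0.57 (0.80 ± 0.07; limma adjusted p = 4.3e-06), on the muscle side. A second cathelicidin, NPG4, did not pass (0.14 ± 0.06; limma adjusted p = 0.071), although it did with tissues centred on their most frequent values (0.19), with centring on the last rows of each run (0.27) and without gilt 1 (0.17). The defensin DEFB1 (-0.05) did not pass either, whereas the defensin DEFB110 was lower (-0.35). DEFB110 lost its call without gilt 2 (-0.33), with centring on the last rows of each run (-0.22) and with muscle and brain stem fitted alone. Of all 10 antimicrobial and innate effector genes, 1 was higher, 2 were lower and 7 did not pass (median -0.04).

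Liver and plasma proteins served as a contrast, since neither tissue is known as a main source of them. In these data VNN1 and CYP8B1 were not highest in liver. Of the 8 named genes of this kind, 1 was higher in muscle, 0 were lower and 7 did not pass (median 0.02). CRP, the acute phase protein, did not differ past the test (-0.20 ± 0.19), with muscle at -1.67 and brain stem at -1.48 relative to the mean of liver and uterine endothelium. Protein C (PROC) differed by 0.72 in gilt 1, by -0.20 to -0.14 in the remaining gilts and by 0.05 ± 0.17 over all 4. The urate oxidase UOX (0.03 ± 0.12), the dihydropteridine reductase QDPR (-0.07 ± 0.16) and the lectin MBL2 (0.35 ± 0.19) did not pass, though MBL2 did without gilt 4 (0.46). CYP8B1, a bile acid hydroxylase, was higher by 0.42 ± 0.14 (limma adjusted p = 0.033), and lost its call without gilt 1 (0.48), gilt 3 (0.40) or gilt 4 (0.46) and with a random gilt block. Its mean was 0.20 in muscle and 0.15 in liver. VNN1 did not pass (0.0022 ± 0.17), with means of 0.24 in muscle, 0.24 in brain stem and -0.23 in liver. For VNN1 both tissues were called above the mean of liver and uterine endothelium, by 0.49 each.

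Genes known from tissues that were not sampled passed in both directions. Of 12 rows for 9 genes, 7 were higher in muscle, 4 were lower and 1 did not pass (median 0.27), and ASIP supplied 4 of the 7. Thus 91.7% of these rows passed, against 39.1% of all rows, of which 21.4% were higher and 17.7% lower. ODF1, a protein of the sperm tail, was lower, at -0.87, -0.83, -0.77 and -1.34 in gilts 1 to 4 (-0.95 ± 0.11; limma adjusted p = 4.0e-05), while the sperm chromatin protein PRM2 was higher by 0.60, 0.75, 0.50 and 0.84 (0.67 ± 0.10; limma adjusted p = 3.1e-04). PRM1 did not pass (-0.09). LALBA, the milk protein alpha-lactalbumin, was lower (-0.71 ± 0.14), and its row directly follows that of CRP. COL10A1, the collagen of growth plate cartilage, was lower, at -0.70, -0.49, -0.59 and -0.92 (-0.67 ± 0.09; limma adjusted p = 1.8e-04). The cone opsin OPN1SW was lower (-0.34 ± 0.09), but not without gilt 4 (-0.33) or with centring on the last rows of each run (-0.21). The kallikrein KLK1 was higher by 0.58 ± 0.11, with 0.10 in gilt 1 and 0.57 to 0.85 in the others. The placental glycoprotein PAG6, outside the list, was lower, at -0.50, -0.79, -0.93 and -0.01 (-0.56 ± 0.18; limma adjusted p = 0.028), and its call was lost without gilt 1 (-0.58), gilt 2 (-0.48) or gilt 3 (-0.43) and with that centring (-0.42).

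The 4 rows of ASIP, the agouti signalling protein of pigmentation, give 1 gene measured 4 times. All were higher in muscle, by 0.52 ± 0.09, 0.34 ± 0.07, 0.30 ± 0.07 and 0.24 ± 0.06 (limma adjusted p between 0.0011 and 0.011), and each had 1 sign in all gilts. The 0.30 row lost its call without gilt 2 (0.22), and the 0.24 row without gilt 2 (0.21) or gilt 4 (0.23). Both also lost it with muscle and brain stem fitted alone. The probes thus gave 1 direction and differed in size.

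The organic ion transporter SLC17A1 was lower, at -0.29, -0.34, -0.02 and -1.19 in gilts 1 to 4 (-0.46 ± 0.15; limma adjusted p = 0.032), and without gilt 4 the difference was -0.22 and did not pass. It also lost its call without gilt 1 (-0.52) or gilt 2 (-0.50). Further losses came with either recentring of the tissues (-0.41 and -0.33) and with muscle and brain stem fitted alone. The hyaluronan synthase SHAS2 was higher by 0.57, 0.68, 0.54 and 0.36 (0.54 ± 0.08; limma adjusted p = 3.1e-04), and the kidney cation transporter SLC22A2 by 0.36 ± 0.10, which did not pass without gilt 3 (0.33). RPN2, a subunit of the oligosaccharyltransferase, was higher by 0.50 ± 0.10, in a row that follows that of JUN. Of 10 transporters and sugar-modifying enzymes, 2 were higher, 2 were lower and 6 did not pass, and of 18 membrane, adhesion and matrix genes, 5 were higher, 2 were lower and 11 did not pass. Germ cell and reproductive genes were 1 higher, 4 lower and 6 not passed of 11.

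**Figure D3:**
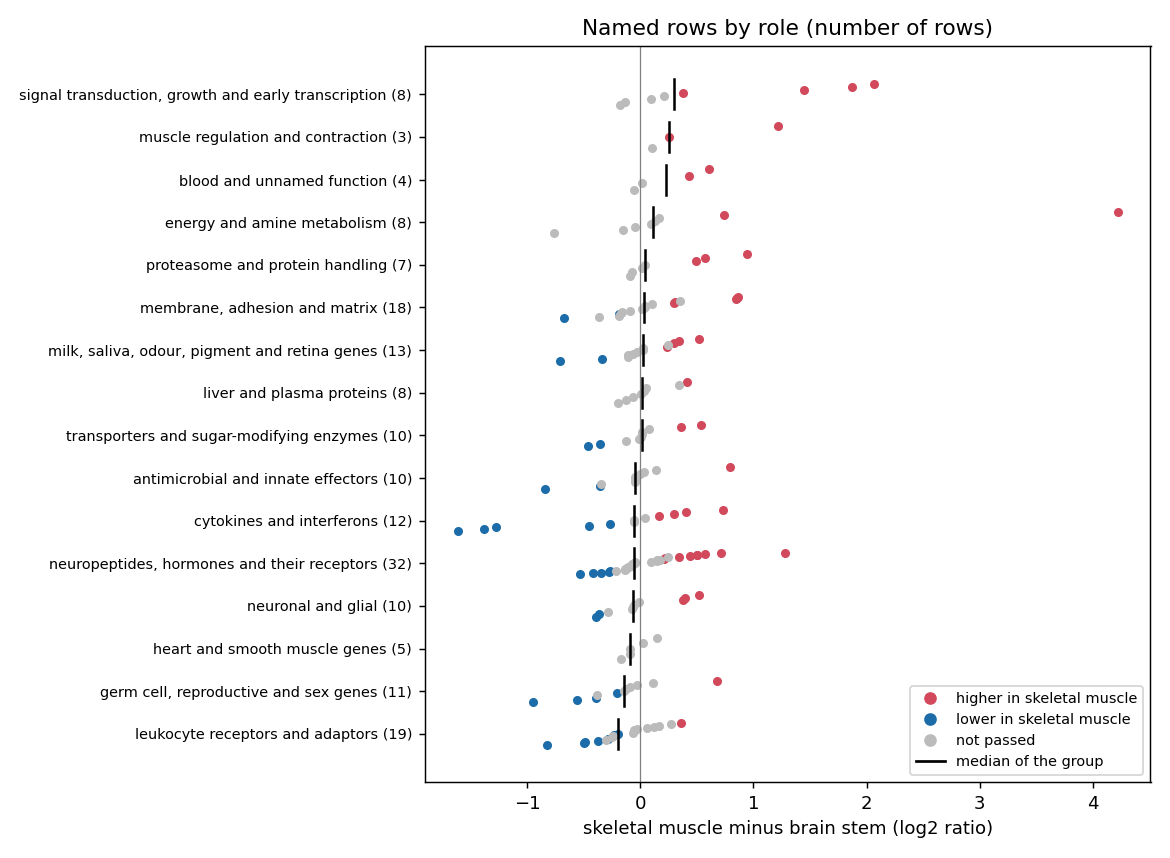
Differences between muscle and brain stem (horizontal axis, log2 ratio) of all 178 named rows, grouped by what each gene is known for; points are rows, coloured by whether they passed, and black ticks are group medians. The medians run from -0.20 for leukocyte receptors to 0.29 for signal transduction and early transcription, and most groups hold genes on both sides of 0.

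A difference between muscle and brain stem can lie on the side of either tissue. The mean of liver and uterine endothelium gives a common base line for both. Liver and uterine endothelium can differ from each other, so a call against their mean need not hold against each of them. Muscle differed from the mean of those tissues in 28.1% of all rows and brain stem in 45.3%. The contrasts share the liver and uterine values, and their difference is the comparison of muscle with brain stem itself, so they only place it. A row counted on the muscle side when muscle was called past that mean in the direction of the difference. It counted on the brain stem side when brain stem was called in the opposite direction. Of the 44 named rows higher in muscle, 16 counted on the muscle side only (36.4%, against 32.8% of all rows that were higher). Another 19 counted on the brain stem side only (43.2%, against 46.0%), 3 on both and 6 on neither. KLF4, INHA, MYOD1, PR39 and ADCYAP1 were on the muscle side. GNAS, PSME1, CAV1, ITGB1, FOLR1, GOT1 and IL1A were on the brain stem side, and PGK2, PRM2 and CD1.1 on both. For PSME1, FOLR1 and IL1A muscle was called below the mean too, at -1.18, -1.78 and -0.55. For CAV1 brain stem (-0.68) lay near liver (-0.59), with uterine endothelium at 1.09. For GOT1 brain stem (-0.47) lay nearer uterine endothelium (-0.23) than liver (0.43). Of the 31 named rows lower in muscle, 24 counted on the brain stem side only, as high in brain stem (77.4%, against 70.8% of all rows that were lower). Of the rest, 1 counted on the muscle side only, 1 on both sides and 5 on neither. The row on the muscle side only was PDCD1LG2, and TLR10 counted on both sides. No test of these shares was made.

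**Figure D4:**
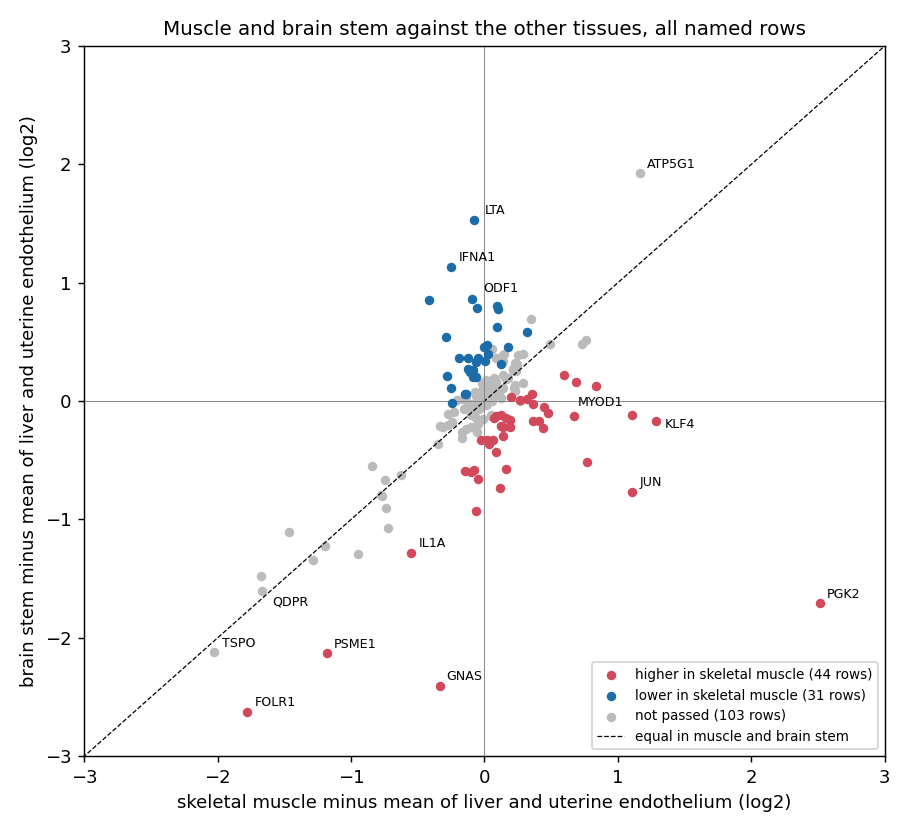
Muscle (horizontal axis) and brain stem (vertical axis) each minus the mean of liver and uterine endothelium (log2) for the 178 named rows; colours give the call of muscle against brain stem and the dashed line marks equal values. Blue rows lie mostly straight above 0 on the muscle axis, red rows spread to the right and downwards, and FOLR1, PSME1, QDPR and TSPO lie low in both tissues.

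The gilts, and the separate routes through a loop, measure the same difference more than once. Across all rows the differences of any 2 gilts correlated with r between 0.73 and 0.85, and the 2 direct arrays, of gilts 2 and 3, with r of 0.81; rows are not independent and share arrays and centring. The SD of the differences over all rows was 0.72, 0.55, 0.77 and 0.89 in gilts 1 to 4, so gilt 2 had the narrowest differences and gilt 4 the widest. In gilts 2 and 3 the direct array was set against the sum of the other 3 arrays, and the median absolute gap over named rows was 0.34 and 0.26. In gilts 1 and 4 the route through liver was set against that through uterine endothelium, with gaps of 0.27 in each. The routes compared in a gilt carried the dyes in opposite order. A dye effect shared by the arrays of a loop thus cancels in the loop value but adds to the gap. Dye effects and noise were not separated. Both routes had the same sign in 61, 55, 70 and 69 of the 75 rows that passed, in gilts 1 to 4. For the 30 genes with the largest differences the counts were 29, 24, 28 and 29. These rows were chosen by loop values that are weighted means of the same routes, which favours equal signs. The counts are thus no separate check. PGK2 was 3.23 on the direct array of gilt 2 and 3.38 by its other arrays, and 4.88 and 3.90 in gilt 3. FOLR1 was 0.26 on the direct array and -0.63 by the other arrays in gilt 2, and 1.04 and -0.23 in gilt 3. Its direction thus differed between routes, which also differed in dye order. TLR10 did so in gilt 2 alone, with -0.95 on the direct array and 0.25 by the others. Of the 30 genes, FOLR1 was the only higher one whose routes differed in sign in gilt 2. The others that differed there were lower in muscle.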

How the data were processed

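The authors' deposited values were log2 ratios, 1 per row and array (base and sign inferred, as above), for 20736 rows on 16 arrays with 0 missing values. How they were scanned, background-corrected and normalized is not given in the sources used here. Medians of single arrays were -0.01 to 0.01, and their SDs ran from 0.52 to 1.00. Signal over background is unknown, and the number of gilts limits the precision. A least squares fit turned the 4 ratios of a gilt into its tissue values. The model, in limma 3.58.1 under R 4.3.3, held tissue terms and a fixed term per gilt, which left 9 residual degrees of freedom, with default moderation and two-sided tests, adjusted by Benjamini-Hochberg over all rows. The block rests on the labels, which tie each loop to 1 animal. The fit was checked on simulated data. All 178 symbols were matched to the RefSeq gene table; no sequence or position was used. Named genes were the 15 largest differences in each direction that passed with 1 sign in all gilts, members of the 10 gene lists and of the marker lists, each ASIP row, and others singled out after their values were seen. The members and lists were chosen with earlier results of these data known, and the grouping by role was drawn up after values were seen, from what each symbol is known for. Lists were described by counts and medians, with no list test.  Alternatives were other centrings and scalings, no block or a random one, muscle and brain stem alone, robust moderation, row filters, the sign turned, and leaving out each gilt.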

Additional observations from a re-analysis of the deposited data

Results flagged for a closer look

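Muscle minus brain stem was looked at gilt by gilt in 79 named rows, the largest differences and the members of the gene lists. In 5 of them 1 gilt stood apart, with a gap to its nearest neighbour that exceeded Dixon's 95% critical share of the whole range for 4 samples. Chance gives about 1 in 20. For PROC, protein C, gilt 1 had 0.72, with the others at -0.20 to -0.14 (gap of 0.940 of the range). For SCAMP1, gilt 3 had 0.86, with the others at 0.37 to 0.44 (0.873). For IFN-DELTA-1, gilt 4 had -0.31, with the others at -1.62 to -1.57 (0.962). For PGK2, gilt 2 had 3.27, with the others at 4.47 to 4.63 (0.879). Gilt 2 also had the narrowest differences over all rows, with an SD of 0.55, against 0.72, 0.77 and 0.89 in gilts 1, 3 and 4. For PSMB8, gilt 4 had 0.71, with the others at -0.27 to -0.15 (0.872).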

How the results depend on the processing

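Of the 75 named rows that passed, 41 kept their call under all alternatives that gave them a value and 48 when each gilt was left out in turn, and 0 reversed under these alternatives; turning the sign of the ratio, which reverses every call, is not counted among them. Without 1 gilt, 5827 to 6746 rows passed (8103 with all gilts), 3374 to 3915 were higher and 2453 to 2865 lower, with 37 to 42 named rows higher and 22 to 26 lower; muscle against the mean of liver and uterine endothelium had 3872 to 4789 (5824 with all gilts). With no replicate block 9002 rows passed and with a random block 8328, at a correlation within gilts of -0.13. Rows lower in muscle numbered 3669 as reported, 2204 with muscle and brain stem values fitted alone, 2255 when these were weighted by the precision of the loop, and 1579 with centring on the last rows of each run, where 12 named rows were lower. The share of higher rows was 54.7% as reported, 64.4% when each tissue was centred on its most frequent value (5107 higher and 2818 lower) and 78.8% on the last rows of each run (5878 higher). With the ratio read as Cy3 over Cy5, the counts swap to 3669 higher and 4434 lower. With muscle and brain stem alone fewer residual degrees of freedom are left; the cause of the other changes was not tested.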

Other observations

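The row of JUN and its neighbours in the table, GLRB, PRLR and RPN2, are named, and all were higher in muscle, by 1.87, 0.39, 0.50 and 0.50. Named rows sit at positions 386 to 391 of each run of 432 rows. Of the 178 named rows 13 follow a strong row, and with such rows left out 4012 rows were higher and 3366 lower. The haemoglobin gene HBE1, an embryonic chain, did not differ past the test between muscle and brain stem (-0.06 ± 0.08, SE; limma adjusted p = 0.60), and the lysosomal protein LAMP1 did not either (0.35 ± 0.19), with -0.35 in gilt 2 and 0.45 to 0.80 in the others. Without gilt 2 LAMP1 was 0.58 and passed (adjusted p = 0.040). DMRT1, a gene of testis development, ran from -1.62 in gilt 4 to 0.47 in gilt 2 and did not pass. The deiodinase DIO3, which inactivates thyroid hormone, was higher by 0.07 to 0.32 in all gilts and did not pass (0.15 ± 0.06; limma adjusted p = 0.096), though it did with 3 of the alternatives.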
